A study of Mus musculus with 8 samples.

Results

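Chemoattractant receptors are the proteins on the surface of a leukocyte that read chemical gradients and steer the cell toward infected or damaged tissue. The mRNA levels of 8 of them, *Ccr1*, *Ccr2*, *Ccr3*, *Ccrl2*, *Cx3cr1*, *Cxcr4*, *Fpr1* and *Fpr2*, were followed in bone marrow-derived macrophages (BMDMs) with and without *Ncoa6*, the gene of a nuclear receptor coactivator. The 8 genes were taken by name, with earlier results of these data known, and all 8 were found among the 50615 rows of the deposited table.

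BMDMs are macrophages grown in culture from marrow cells, here of C57BL/6 mice and for 6 days with M-CSF at 20 ng/ml. *Ncoa6*-KO cells came from Ncoa6 fl/fl LysM CRE mice, in which Cre from the lysozyme 2 locus cuts out a floxed stretch of *Ncoa6* in cells of the myeloid lineage. The *Ncoa6*-sufficient cells, labelled WT, were of Ncoa6 fl/fl mice, which carry the floxed gene without Cre. Cells of each genotype were left in medium alone or primed with LPS, a bacterial cell wall component, for 4 h (100 ng/ml), with monosodium urate (MSU) crystals, the crystals of gout, added for another 2 h (200 µg/ml). Messenger RNA of 2 mice was sequenced in each of these 4 groups, 8 libraries in all, and p-values measure the spread between libraries of 2 mice a group. An effect of carrying Cre alone cannot be told apart from the loss of *Ncoa6* in this design.

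Chemokine receptors and formyl peptide receptors cross the membrane several times and couple to inhibitory G proteins, through which they activate PI3Kγ, phospholipase C and Rac and so drive migration. CCR1, CCR2 and CCR3 bind inflammatory CC chemokines, CX3CR1 binds the membrane chemokine fractalkine, CXCR4 holds cells in the marrow by its ligand CXCL12, and FPR1 and FPR2 bind formylated peptides that bacteria and mitochondria release. CCRL2 is an atypical receptor that presents the chemoattractant chemerin and does not couple to G proteins. Macrophages are known to change these receptors when they meet microbial products.

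Of the 8 genes, 5 lie on mouse chromosome 9 and the formyl peptide receptors lie side by side on chromosome 17 (GRCm38). *Ccr1* (chr9:123962124-123968692, minus strand), *Ccr3* (chr9:124021972-124031689, plus strand) and *Ccr2* (chr9:124101950-124113557, plus strand) form a cluster in which the starts of *Ccr1* and *Ccr2* are 133.3 kb apart. *Ccrl2* (chr9:111054486-111057519) and *Cx3cr1* (chr9:119901616-120069879), both on the minus strand, lie farther off on the same chromosome, and *Cxcr4* (chr1:128588199-128592293, minus strand) is on chromosome 1. *Fpr1* (chr17:17876471-17883940, minus strand) and *Fpr2* (chr17:17887824-17893952, plus strand) point away from each other with 3.9 kb between their starts. The 250 bases before the start sites of the 3 receptors that LPS + MSU raised most are printed here from RefSeq (GRCm38.p6), each 5′ to 3′ on the strand of its gene, and capitals mark matches to the motifs described next.

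*Ccrl2*, chr9:111057519-111057768, minus strand: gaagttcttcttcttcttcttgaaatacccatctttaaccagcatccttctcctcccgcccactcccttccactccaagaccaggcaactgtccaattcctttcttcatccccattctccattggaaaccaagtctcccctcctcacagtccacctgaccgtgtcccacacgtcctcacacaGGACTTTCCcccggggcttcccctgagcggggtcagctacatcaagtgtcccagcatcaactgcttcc

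*Fpr1*, chr17:17883940-17884189, minus strand: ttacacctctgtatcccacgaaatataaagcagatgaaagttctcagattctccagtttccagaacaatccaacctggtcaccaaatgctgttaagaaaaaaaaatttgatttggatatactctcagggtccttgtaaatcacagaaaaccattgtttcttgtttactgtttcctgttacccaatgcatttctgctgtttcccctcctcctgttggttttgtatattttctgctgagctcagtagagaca

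*Fpr2*, chr17:17887574-17887823, plus strand: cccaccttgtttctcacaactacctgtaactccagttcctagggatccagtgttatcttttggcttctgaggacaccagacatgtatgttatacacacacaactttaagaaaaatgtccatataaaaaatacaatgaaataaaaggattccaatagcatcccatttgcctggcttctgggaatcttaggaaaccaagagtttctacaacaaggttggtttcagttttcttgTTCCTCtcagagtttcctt

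RefSeq windows of 300 bases, from 250 before to 50 after a start site, were given for all 8 genes, with 3 windows for *Ccrl2*, and were searched on both strands for 4 short motifs. GGANNTTCC, a form of the NF-κB site, was found in 4.26% of the 32851 windows of the mouse table and in 2 of the 8 genes, at 68 bases before the first *Ccrl2* start and 179 bases before the *Ccr3* start. GAGGAA, the core that PU.1 and other ETS factors bind, was in 28.28% of all windows and in 3 of the 8 genes, at 129 bases before *Ccr1*, 181 before *Ccr3*, where it overlaps the NF-κB match, and 19 before *Fpr2*. GAAANNGAA, an interferon response element, was in 8.56% of windows and 86 bases before *Ccr2*, and TGANTCA, the AP-1 site, was in 7.81% and 144 bases before *Ccr3*. The windows of *Fpr1*, *Cx3cr1* and *Cxcr4* held no match to these motifs. The RefSeq starts of *Ccr2* and *Cx3cr1* lie 233 and 1583 bases inside the genes as positioned above. The *Ccr2* match thus falls within the annotated gene.

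The deposited values are RSEM expected counts per gene, and libraries summed to between 25281955 and 33673552 counts. Counts are given below as normalized counts, scaled by edgeR's TMM factors (0.766 to 1.29) to the mean effective library size of 29332189, and calls rest on an adjusted p under 0.05 (Benjamini-Hochberg, over the 17625 genes tested) from the quasi-likelihood test of edgeR. *Ncoa6* stood at 1459.7 ± 77.7 (SD, n = 2) in sufficient and 702.9 ± 114.9 in KO cells at rest, and at 1235 ± 87.3 and 544.7 ± 26.3 after LPS + MSU, so that its counts were lower under both conditions but were not lost (log2 fold change -1.05, adjusted p = 0.00236, and -1.18, adjusted p = 0.00189). Whole-gene counts do not show which part of *Ncoa6* is deleted.

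The macrophage markers *Adgre1* and *Csf1r* were high in all groups, and the sum of 10 macrophage markers was lower in KO cells, at 268233 to 309471 normalized counts against 410758 to 477589 with medium alone and 380058 to 408085 against 523716 to 592130 with LPS + MSU. *Lyz2*, the locus that carries Cre, made up 44.8% of this sum. Its group means were 240995 in sufficient and 119774 in KO cells at rest, and 243832 and 126325 with LPS + MSU. The log2 fold changes of all 10 markers were below 0 in both conditions. In KO cells 3 of the 10 were called lower with medium alone, *Fcgr1*, *Lyz2* and *Cd14*, beside 1.30% of all genes. With LPS + MSU 4 were called lower, among them *Fcgr1*, *Lyz2* and *Itgam*, beside 1.63% of all genes. *Csf1r* and *Adgre1* were not called in either condition. Neutrophil markers summed to between 444.9 and 512.6 at rest and to between 754.7 and 992.0 after LPS + MSU over both genotypes, none of the 9 measured was called between genotypes, and *Ly6g* had a total of 1 count over the 8 libraries. Of 11 markers of eosinophils, basophils and mast cells only 3 passed the filter, *Epx* also had a total of 1 count, and *Kit* gave 94.3% of the sum. Markers of stromal and endothelial cells, of which *Kdr* was 82.2%, summed to 941.9 to 1069 in sufficient and 501.9 to 806.1 in KO cells at rest, and to 7193 to 7565 and 3710 to 5563 after LPS + MSU. In bulk RNA, fewer cells of a type and less RNA per cell cannot be told apart, and the part of these marker levels in the receptor results was not tested.

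The first comparison was between culture conditions within a genotype. In *Ncoa6*-sufficient cells all 8 receptors changed with LPS + MSU: *Fpr2*, *Ccrl2*, *Fpr1*, *Ccr1* and *Ccr3* rose, and *Cxcr4*, *Cx3cr1* and *Ccr2* fell. Among all genes tested 24.7% were called higher and 30.5% lower in this comparison, so a call by itself was common. In *Ncoa6*-KO cells 7 of the 8 were called, 4 higher and 3 lower, beside 25.2% higher and 27.9% lower among all genes, and *Ccr1* was the receptor that did not pass the test there. The median log2 fold change of the 8 was 0.77 in sufficient and 0.58 in KO cells, against -0.12 and -0.07 over all genes, a median that joins receptors moving in opposite directions.

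**Figure D1:**
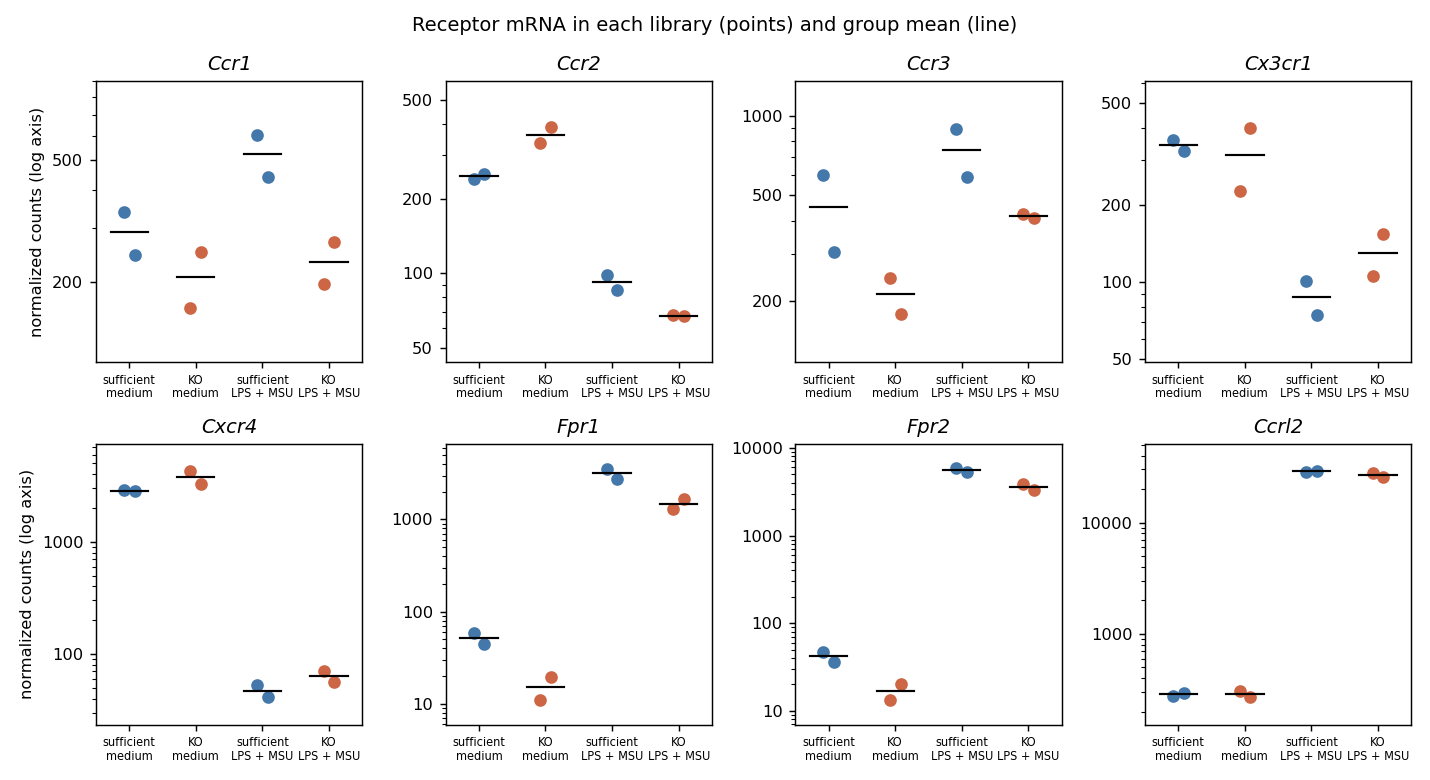
Normalized counts (log axis) of the 8 receptors in each of the 8 libraries, by genotype and culture condition, with a line at the mean of each group. *Ccrl2*, *Fpr1* and *Fpr2* rise and *Cxcr4* falls by far more than the distance between libraries of a group, while *Ccr3* spreads from 306.2 to 595.2 within *Ncoa6*-sufficient cells in medium alone.

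*Ccrl2* went from 279.2 and 296.8 normalized counts in the sufficient libraries with medium alone to 28632 and 28871 with LPS + MSU, and from 305.9 and 270.5 to 28009 and 25844 in the KO libraries. The 4 stimulated libraries lay close together, and so did the 4 libraries in medium. These are log2 fold changes of 6.64 ± 0.14 (SE, adjusted p = 2.67e-10) and 6.54 ± 0.14 (adjusted p = 1.73e-10), or 99.8-fold and 93.2-fold higher.

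*Fpr2*, a receptor for formyl peptides, serum amyloid A and annexin A1, rose from 47.3 and 36.1 to 5873 and 5367 in sufficient cells, 133.5-fold (log2 fold change 7.06 ± 0.17, adjusted p = 2.89e-10). In KO cells it rose from 13.2 and 20.2 to 3896 and 3301, 218.4-fold (7.77 ± 0.19, adjusted p = 2.79e-10). Its neighbour *Fpr1*, the high-affinity receptor for bacterial formyl peptides, went from 58.5 and 44.7 to 3554 and 2761 in sufficient cells (5.92 ± 0.21, adjusted p = 2.15e-09) and from 11.1 and 19.3 to 1308 and 1658 in KO cells (6.63 ± 0.25, adjusted p = 3.03e-09). The resting levels rest on few reads, 78 and 52 raw counts of *Fpr1* in the sufficient and 16 and 22 in the KO libraries.

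*Cxcr4* moved the other way, from 2900 and 2820 normalized counts to 52.6 and 41.3 in sufficient cells and from 4250 and 3286 to 70.6 and 56.0 in KO cells. It kept 1.65% of its resting level in sufficient and 1.69% in KO cells (log2 fold change -5.92 ± 0.18, adjusted p = 1.00e-09, and -5.89 ± 0.18, adjusted p = 7.08e-10). No stimulated library came near a resting one.

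*Cx3cr1* fell from 358.8 and 324.3 to 101.1 and 74.4 in sufficient cells (-1.96 ± 0.28, adjusted p = 1.18e-04) and from 227.3 and 399.5 to 105.9 and 153.9 in KO cells (-1.27 ± 0.27, adjusted p = 0.00206). *Ccr2*, the receptor by which monocytes leave the marrow toward CCL2, fell from 240.2 and 252.0 to 98.4 and 85.4 in sufficient cells (-1.42 ± 0.16, adjusted p = 1.35e-05). The fall in KO cells went from 334.4 and 390.8 to 68.0 and 67.2, which left 18.7% of the resting level against 37.4% in sufficient cells (-2.42 ± 0.16, adjusted p = 2.29e-07). The calls for *Ccrl2*, *Fpr1*, *Fpr2*, *Cxcr4*, *Cx3cr1* and *Ccr2* between culture conditions held in both genotypes in each fit that left out 1 library.

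The rises of *Ccr1* and *Ccr3* were small and uncertain. *Ccr1*, a receptor for CCL3 and CCL5, stood at 338.5 and 246.0 at rest and 604.0 and 440.7 with LPS + MSU in sufficient cells (0.83 ± 0.23, adjusted p = 0.0102), and at 164.8 and 250.3 against 197.3 and 270.0 in KO cells, where the conditions overlapped (0.18 ± 0.25, adjusted p = 0.582). The call in sufficient cells was lost without library 2 in medium (adjusted p = 0.0944) or library 1 with LPS + MSU (adjusted p = 0.0847), and the difference between the genotypes' responses did not pass its own test (-0.66 ± 0.34, adjusted p = 0.880).

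*Ccr3*, the eotaxin receptor known best from eosinophils, stood at 595.2 and 306.2 at rest and 892.2 and 588.0 with LPS + MSU in sufficient cells, with overlap between the conditions (0.71 ± 0.28, adjusted p = 0.0476). In KO cells it went from 244.7 and 178.3 to 426.0 and 411.3 without overlap (0.98 ± 0.29, adjusted p = 0.0158). Leaving out a library ended the first call in 4 of 8 cases, with values of 0.31 (adjusted p = 0.323) without sufficient library 2 in medium, 0.42 (adjusted p = 0.299) without sufficient library 1 with LPS + MSU, and adjusted p = 0.0552 and 0.0550 without KO library 1 or 2 with LPS + MSU. It was also lost in a fit of the 4 libraries compared (0.75, adjusted p = 0.0811). The call in KO cells was lost without KO library 2 in medium (adjusted p = 0.0899) or KO library 1 or 2 with LPS + MSU (adjusted p = 0.0726 and 0.0531).

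**Figure D2:**
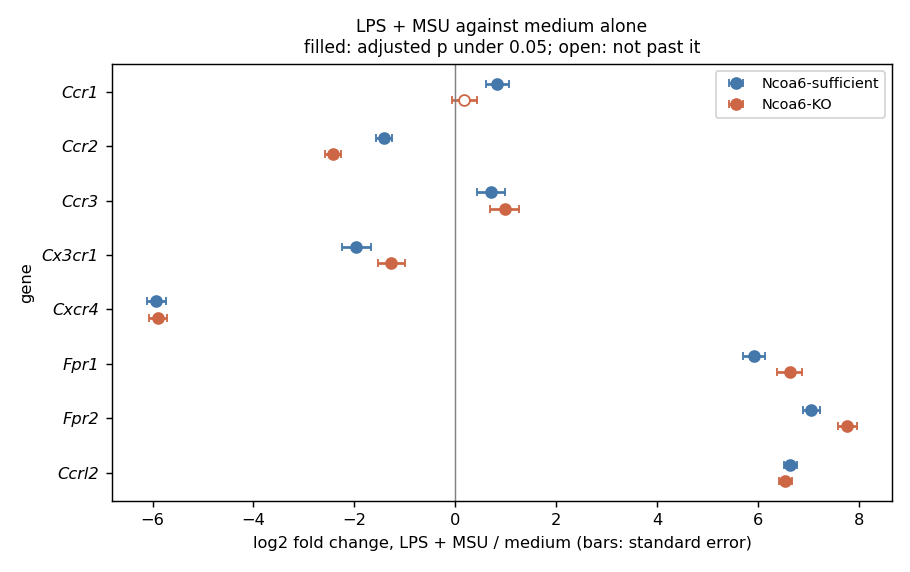
Log2 fold change (± SE) of each receptor with LPS + MSU against medium alone, in *Ncoa6*-sufficient and *Ncoa6*-KO cells, with filled points at an adjusted p under 0.05. Each receptor lies on the same side of 0 in both genotypes, from -5.92 and -5.89 for *Cxcr4* to 7.06 and 7.77 for *Fpr2*, and *Ccr1* in KO cells, at 0.18, is the open point.

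Set in order by level, as normalized counts per kilobase of annotated exon, *Cxcr4* led among the 8 receptors in resting sufficient cells at 1582 and was above the other 7 in both libraries. *Ccr3* (137.7), *Ccrl2* (110.8) and *Ccr1* (103.2) followed with neighbouring ranges that overlapped, then *Cx3cr1* (75.8), and then *Fpr1* (39.0), *Ccr2* (36.4) and *Fpr2* (32.2), again with overlap between neighbours. In resting KO cells *Cxcr4* was again first (2084) and *Ccrl2* second (110.9), *Ccr1*, *Cx3cr1*, *Ccr3* and *Ccr2* stood between 73.2 and 53.6 with each range overlapping the next, and *Fpr2* (12.9) and *Fpr1* (11.5) were lowest.

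With LPS + MSU the order in sufficient cells was *Ccrl2* (11067), *Fpr2* (4336), *Fpr1* (2385), *Ccr3* (226.2), *Ccr1* (184.4), *Cxcr4* (26.0), *Cx3cr1* (19.5) and *Ccr2* (13.6), and the ranges of *Ccr3* and *Ccr1* were the only neighbours to overlap. KO cells had the same order, from *Ccrl2* at 10364, *Fpr2* at 2776 and *Fpr1* at 1120 to *Ccr2* at 9.99, and there *Cxcr4* (35.0) and *Cx3cr1* (28.8) overlapped. The receptor that led at rest had thus passed below the formyl peptide receptors and CC receptors 1 and 3 in both genotypes.

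The second comparison asked how receptor levels differed without *Ncoa6*. With medium alone *Fpr1* and *Fpr2* were lower in KO cells, to 28.7% and 39.1% of the sufficient level, and no receptor was called higher, beside 1.30% of all genes called lower and 0.573% called higher. With LPS + MSU *Fpr1*, *Fpr2* and *Ccr1* were lower, to 47.0%, 64.0% and 44.7%, and again no receptor was called higher, beside 1.63% of all genes called lower and 1.96% higher. *Ccr2*, *Ccr3*, *Ccrl2*, *Cx3cr1* and *Cxcr4* did not pass the test in either condition. The median log2 fold change of the 8 was -0.32 at rest and -0.54 after stimulation, against -0.03 and 0.00 over all genes.

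**Figure D3:**
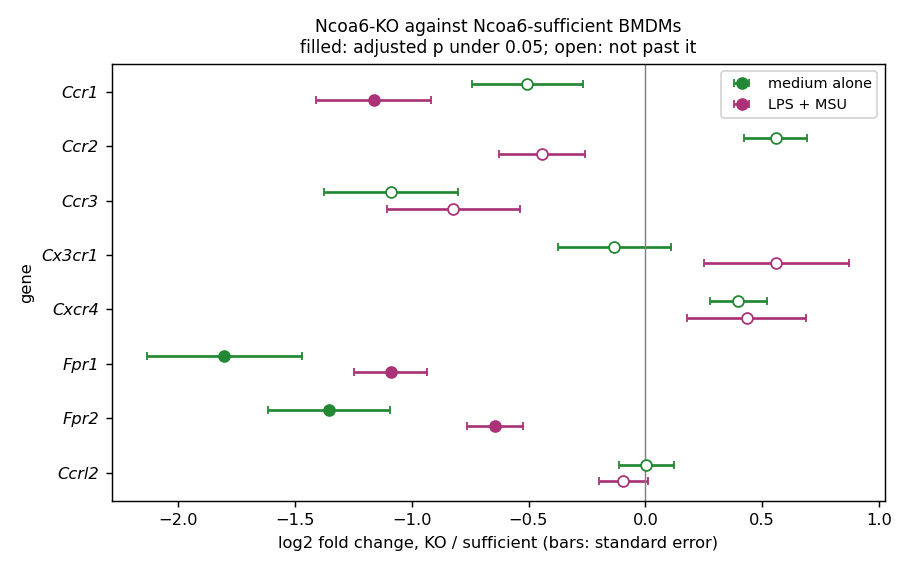
Log2 fold change (± SE) of each receptor in *Ncoa6*-KO against *Ncoa6*-sufficient cells under each culture condition, with filled points at an adjusted p under 0.05. *Fpr1* and *Fpr2* lie below 0 with filled points in both conditions, *Ccr1* has a filled point at -1.16 with LPS + MSU, and the 2 points of *Ccr2* lie on opposite sides of 0, at 0.56 and -0.44.

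*Fpr1* was lower in each KO library than in each sufficient library under both conditions. With medium alone the 58.5 and 44.7 normalized counts of the sufficient libraries stood against 11.1 and 19.3 in the KO libraries, a log2 fold change of -1.80 ± 0.33 (adjusted p = 0.0250). With LPS + MSU 3554 and 2761 stood against 1308 and 1658 (-1.09 ± 0.16, adjusted p = 0.00600). The first call was lost with limma-voom (adjusted p = 0.104) and without sufficient library 1 (-1.59, adjusted p = 0.282), sufficient library 2 (-1.97, adjusted p = 0.0622) or KO library 1 in medium (-1.42, adjusted p = 0.117), and the second without sufficient library 1 with LPS + MSU (-0.91, adjusted p = 0.0616), and the value stayed below 0 in each case.

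*Fpr2* behaved alike, at 47.3 and 36.1 against 13.2 and 20.2 at rest (-1.35 ± 0.26, adjusted p = 0.0300) and at 5873 and 5367 against 3896 and 3301 with LPS + MSU (-0.64 ± 0.12, adjusted p = 0.0179). Genotypes did not overlap in either condition. The resting call was lost with limma-voom (adjusted p = 0.109), in a fit of the 4 libraries compared (adjusted p = 0.100) and without each of the 4 resting libraries, sufficient 1 (adjusted p = 0.335) and 2 (0.0634) and KO 1 (0.143) and 2 (0.0520). The stimulated call was lost in the fit of 4 libraries (adjusted p = 0.0638) and without sufficient library 1 (adjusted p = 0.152) or KO library 2 (adjusted p = 0.180).

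The formyl peptide receptors have annotated exons of nearly equal length, 1324 bases for *Fpr1* and 1296 for *Fpr2*. *Fpr2* had 0.808 counts for each count of *Fpr1* in both resting sufficient libraries and 1.19 and 1.05 in the resting KO libraries, and with LPS + MSU 1.65 and 1.94 in the sufficient and 2.98 and 1.99 in the KO libraries. *Fpr2* was the more abundant in each stimulated library, while at rest the ranges of both genes overlapped per kilobase in each genotype. Counts of *Fpr2* carry some doubt, since 408 of its 1295 stretches of 50 bases (31.5%) also occur in transcripts of other genes, 368 of them in the pseudogene *Gm5966*, and 48 of its exon bases are shared with *Fpr3*. *Gm5966* had a mean of 18.7 and *Fpr3* of 4.25 normalized counts over the 8 libraries, against 2319 for *Fpr2*. Only 1 of the 1275 stretches of *Fpr1* was shared.

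*Ccr1* with LPS + MSU stood at 604.0 and 440.7 in the sufficient and 197.3 and 270.0 in the KO libraries, with no overlap (-1.16 ± 0.25, adjusted p = 0.0297). With medium alone the genotypes overlapped, 338.5 and 246.0 against 164.8 and 250.3 (-0.51 ± 0.24, adjusted p = 0.412). The stimulated call was lost in the fit of 4 libraries (adjusted p = 0.0638) and without sufficient library 1 (-0.93, adjusted p = 0.239) or KO library 1 (-0.97, adjusted p = 0.153) or 2 (-1.41, adjusted p = 0.120).

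*Ccr3* had KO values below the sufficient ones in every library pair of both conditions, 595.2 and 306.2 against 244.7 and 178.3 at rest and 892.2 and 588.0 against 426.0 and 411.3 with LPS + MSU. It did not pass the test in either (-1.09 ± 0.29, adjusted p = 0.0933, and -0.82 ± 0.28, adjusted p = 0.159). The sufficient libraries in medium differed from each other by about as much as the genotypes did. DESeq2 called both (adjusted p = 0.00633 and 0.0380). A fit by edgeR with no filter on low counts also called both (9.37e-13 and 2.46e-07). These values lie far below those of DESeq2 and of the fit reported here, and p-values of the fit with no filter are not relied on. Without sufficient library 2 in medium the value at rest was -1.49. The eosinophil marker *Siglecf* stood at 23.3 and 10.3 in sufficient and 5.56 and 5.27 in KO libraries at rest and at 29.1 and 15.1 against 9.15 and 9.79 with LPS + MSU. It was lower in KO cells without overlap as *Ccr3* was, but not called (adjusted p = 0.220 and 0.321). *Kit*, of the same marker list, had higher means in KO cells, 454.5 against 310.4 at rest and 69.0 against 33.1 with LPS + MSU. Of the 3 markers of that list past the filter, 2 were higher in KO cells at rest and 1 with LPS + MSU, and none was called. The part of these markers in the *Ccr3* values was not tested.

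*Ccr2* was higher in both resting KO libraries, 334.4 and 390.8 against 240.2 and 252.0 (0.56 ± 0.13, adjusted p = 0.0697), and lower in both stimulated ones, 68.0 and 67.2 against 98.4 and 85.4 (-0.44 ± 0.18, adjusted p = 0.242). Neither difference passed the test in the fit reported here. The resting one was called with limma-voom (adjusted p = 0.0437). It was also called with no filter (adjusted p = 0.0145), a fit whose p-values are not relied on. Of the 6758 stretches of 50 bases in *Ccr2* transcripts 129 (1.91%) also occur in transcripts of other genes.

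The remaining receptors showed no call between genotypes. *Cxcr4* read 2900 and 2820 against 4250 and 3286 with medium alone (0.40 ± 0.12, adjusted p = 0.161), without overlap. With LPS + MSU it read 52.6 and 41.3 against 70.6 and 56.0 (0.43 ± 0.25, adjusted p = 0.429), again without overlap. Among the fits without a replicate term only the one with no filter, which is not relied on, called the difference with medium alone (adjusted p = 0.0102). *Cx3cr1* overlapped at rest (-0.13 ± 0.24, adjusted p = 0.897) and stood at 101.1 and 74.4 against 105.9 and 153.9 with LPS + MSU (0.56 ± 0.31, adjusted p = 0.402). *Ccrl2* was closest to equal, with log2 fold changes of 0.00 ± 0.12 and -0.09 ± 0.10 (adjusted p = 1.00 and 0.705).

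Whether the effect of the knockout differed between culture conditions was tested as the interaction, the log2 fold change of KO against sufficient cells with LPS + MSU minus that with medium alone. No receptor was called, and none of the 17625 genes was (0%). An unadjusted p under 0.05 was found for 1045 genes, a limit that a share of 0.05 of all genes passes by chance. DESeq2 called 43 genes, and edgeR with no filter on low counts, whose p-values are not relied on, called 269. *Ccr2* had the largest value among the 8, -1.0 ± 0.23 (unadjusted p = 0.00114, adjusted p = 0.406), and *Fpr1* and *Fpr2* had values of 0.71 ± 0.37 and 0.71 ± 0.29 (adjusted p = 0.883 and 0.803). The other 5 lay between -0.66 and 0.69 with adjusted p from 0.880 to 1.00.

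Among 34 other chemoattractant receptors 23 passed the filter. Between genotypes 0 were called with medium alone and 1 with LPS + MSU, lower, beside 2 and 3 of the 8 receptors. Of all genes 1.30% and 1.63% were called lower and 0.573% and 1.96% higher. Several of the 23 had few counts, such as *Ltb4r2* and *Cxcr1* with means of 1.24 and 1.02 normalized counts, so the lists are not alike in level. The medians of the 23 were -0.24 and -0.23, against -0.32 and -0.54 for the 8 receptors.

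LPS + MSU raised 9 and lowered 4 of the 23 in sufficient cells, where 24.7% of all genes were called higher and 30.5% lower, and 8 and 4 in KO cells, where 25.2% and 27.9% were. Some of the 23, such as *Ccr7* with no count at rest, passed the filter only through the stimulated libraries. The complement receptor *C3ar1*, which at 5664 normalized counts per kilobase in resting sufficient cells stood above *Cxcr4*, as did *C5ar1* at 4047 and *Ptafr* at 1798, rose by 1.24 and 0.86 on the log2 scale in sufficient and KO cells. *Xcr1* (4.18 and 3.95), *Ptafr*, the receptor of platelet-activating factor (0.79 and 1.03), and *C5ar1* (0.30 and 0.33) rose in both genotypes as well. *S1pr1* (-3.72 and -4.17) and *Gpr183* (-3.37 and -2.59), which read sphingosine 1-phosphate and oxysterols, fell in both, as did *Cxcr3* (-2.04 and -1.70) and *C5ar2* (-1.84 and -1.92). These 8 genes were not called between genotypes.

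Of 20 ligand genes of the receptors 17 passed the filter, and LPS + MSU raised 13 of them in sufficient and 14 in KO cells and lowered none. Of all genes 24.7% and 25.2% were called higher and 30.5% and 27.9% lower. Genes that are near 0 at rest pass the filter only if they rise, so these counts are a description. *Saa3*, a serum amyloid A gene whose family FPR2 recognises, was lower in KO cells in both conditions, at 602.7 and 436.1 against 144.6 and 113.3 at rest (-2.0 ± 0.19, adjusted p = 0.00169) and at 22608 and 17506 against 12279 and 11471 with LPS + MSU (-0.76 ± 0.16, adjusted p = 0.0334). *Ccl9*, a ligand of CCR1, was lower with medium alone (-0.66 ± 0.14, adjusted p = 0.0474). *Cx3cl1*, the gene of fractalkine, was higher in KO cells with LPS + MSU, at 2880 and 2918 against 1722 and 2034 (0.63 ± 0.11, adjusted p = 0.0132). Between genotypes 2 of the 17 were called lower with medium alone, beside 1.30% of all genes, and 0 higher. With LPS + MSU 1 was called lower and 1 higher, beside 1.63% and 1.96% of all genes. The medians of the 17 were -0.66 and -0.24, against -0.03 and 0.00 over all genes. All 17 lay below 0 with medium alone, and 14 below and 3 above with LPS + MSU.

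The signalling genes behind the receptors numbered 34 in the deposited table. All 34 passed the filter, and between genotypes none was called higher. With medium alone 4 were lower (1.30% of all genes were), among them *Rgs14* (-0.89 ± 0.09, adjusted p = 0.00169), a regulator of inhibitory G proteins, *Grk3* (-0.98 ± 0.13, adjusted p = 0.00641), a kinase of activated receptors, and *Arrb2* (-0.56 ± 0.10, adjusted p = 0.0245), which uncouples and internalises them. With LPS + MSU 3 were lower (1.63% of all genes were), among them *Rgs14* (-1.47 ± 0.08, adjusted p = 4.02e-05) and the Rac activator *Vav3* (-0.71 ± 0.17, adjusted p = 0.0431). The medians of the list were -0.12 and -0.08, against -0.03 and 0.00 over all genes.

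The neighbourhoods of the clusters were read next. Within 300 kb of the *Ccr2* start 16 genes are annotated and 12 passed the filter, of which 2 were called between genotypes with LPS + MSU, both lower and *Ccr1* among them, and 0 with medium alone, beside 1.63% and 1.30% of all genes called lower. No count of these 12 is given for LPS + MSU against medium alone, since some had almost no counts at rest. *Cxcr6*, for example, had 0 and 1 raw counts in the resting KO libraries and could pass the filter mainly through the stimulated ones. Within 300 kb of the *Fpr2* start 24 genes are annotated and 9 passed the filter, and *Fpr1* and *Fpr2* were the 2 called lower in KO cells in either condition. *Lnpep* (2.11 and 1.60) and *Spaca6* (3.91 and 3.52) rose with LPS + MSU in sufficient and KO cells, and no count is given for the others, since several had almost no counts at rest and could pass the filter only through the stimulated libraries.

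Across the 8 libraries the genes closest in pattern to each receptor were found by Pearson correlation of log2 CPM over 11207 genes whose mean reached 50 normalized counts. *Fpr1* was followed most closely by *Gpr84* (r = 0.9995) and *Flrt2* (0.9993), *Fpr2* by *Basp1* (0.9996) and *Mlkl* (0.9993), *Ccrl2* by genes that include *Cflar* (0.9998), and *Cxcr4* by *Slc26a11* (0.9993) and *Mettl13* (0.999). For these 4 receptors between 2020 and 2205 genes had r over 0.95, since 4 of the 8 libraries are stimulated and any strong response gives a high value. *Ccr1* (*Arpc2*, 0.962, and *Mmd*, 0.95) and *Ccr3* (*Plxna4os1*, 0.988, and *Tmem109*, 0.987) had 1 and 25 such genes, *Ccr2* (*Anapc1* and *Cnst*, both 0.991) had 603, and *Cx3cr1* (*Amd1* and *Exosc7*, both 0.995) had 372.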

How the data were processed

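Libraries were prepared by the authors with a stranded poly(A) kit and read in pairs, aligned with STAR 2.7.3a and quantified with RSEM 1.3.3 on GRCm38, release 101. The deposited values are expected counts per gene, not normalized, and 8.95% of them are not whole because RSEM divides reads between genes that share sequence. Here expected counts were rounded, and a gene was tested where its counts added up to at least 10. The 4 groups were fitted together with edgeR 4.0.16 in R 4.3.3 (TMM, quasi-likelihood, no block, 4 residual degrees of freedom), and p-values were adjusted over all 17625 genes. Since 2 libraries against 2 give no exact permutation p below 0.333, p-values come from this model. The alternatives were DESeq2 1.42.0, its size factors in edgeR, filterByExpr, no filter, limma-voom (limma 3.58.1) on unrounded counts, a replicate block, only the 4 libraries compared, and leaving out each library. Code was tested on simulated counts.

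The receptors, lists and comparisons were chosen with earlier results of these data known. Named were all 8 receptors, other receptors called between genotypes or averaging at least 50 normalized counts, ligands and signalling genes called between genotypes, receptors and called genes near *Ccr2* and *Fpr2*, and the 2 genes most correlated with each receptor. *Lnpep*, *Spaca6*, *Gm5966* and *Fpr3* were named after their values were seen. *Camp*, *Xcr1*, *Ccr7* and *Cxcr2* each stand in 2 lists, as a ligand or receptor and as a marker. Some genes that the rule names are not reported here. Positions come from GENCODE vM21 (GRCm38). Monocyte markers summed to 921.1 to 1201 normalized counts with medium alone and 1427 to 2000.5 with LPS + MSU over both genotypes, dendritic cell markers to 23.2 to 30.7 and 180.3 to 297.9, and lymphoid markers to 6.00 to 19.3 and 75.5 to 202.3.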

Additional observations from a re-analysis of the deposited data

Results flagged for a closer look

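*Ccr2* was picked out because its knockout difference took opposite signs in the culture conditions, with each resting *Ncoa6*-KO library above each sufficient one and each stimulated *Ncoa6*-KO library below. The share of all genes with such a pattern was not counted, so how common it is remains unknown. The difference between the effects was -1.0 on the log2 scale (SE 0.23, n = 2 libraries a group). The interaction did not pass the edgeR test after adjustment (adjusted p = 0.406). Without each library in turn it ran from -1.15 to -0.89, and over the other fits from -1.06 to -0.99 with adjusted p from 0.0147 to 1.00 over all alternatives.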

How the results depend on the processing

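The 8 receptors gave 616 values under an alternative, of which 560 kept their direction and side of the threshold, 28 lost a call, 16 gained one and 12 changed sign. With medium alone the 2 receptors called between genotypes (*Fpr1* and *Fpr2*) were both lost with limma-voom, which called 1, *Ccr2*, in the other direction. The count was 1 in the fit of 4 libraries, 3 with DESeq2, 6 with no filter and 5 with the replicate block, and 0 to 2 without each library. With LPS + MSU the 3 called became 4 with DESeq2, with no filter and with the block, 1 in the fit of 4 libraries and 0 to 3 without each library. The calls with LPS + MSU against medium alone numbered 6 to 8 in sufficient and 6 to 7 in KO cells without each library, and the interaction had 1 call with no filter, 2 with the replicate block within genotype and 0 without any library. Of the other receptors, with medium alone 3 were called with no filter and 2 with the block. With LPS + MSU the 1 call became 2 with DESeq2, 0 with filterByExpr, 0 with limma-voom, 0 in the fit of 4 libraries, 3 with no filter, 3 with the block and 0 to 1 without each library. Their interaction had 2 calls with the block within genotype, and 9 to 13 (sufficient) and 10 to 12 (KO) were called between culture conditions without each library. The causes were not tested.

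Signs changed only for values near 0: *Ccrl2* at rest, -0.04 without sufficient and -0.090 without KO library 1 in medium (to 0.088 without KO library 2), *Cx3cr1* at rest, 0.23 without KO library 1 in medium (to -0.59 without KO library 2), *Ccr1* in KO cells with LPS + MSU against medium, -0.10 without KO library 1 in medium and -0.06 without KO library 2 with LPS + MSU (to 0.50 without KO library 2 in medium), and the interactions of *Ccr3* (-0.29 without sufficient library 1 in medium, -0.05 without sufficient library 2 with LPS + MSU, to 0.66 without sufficient library 2 in medium), *Cxcr4* (-0.019 with DESeq2, -0.02 with its size factors in edgeR, -0.14 without KO library 2 in medium, -0.18 without sufficient library 2 and -0.20 without KO library 1 with LPS + MSU) and *Ncoa6* (0.051 without KO library 1 and -0.28 without KO library 2 in medium). Where 1 library is dropped, the lone library of its group is assumed to vary like the others.

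The labels number the libraries 1 and 2 in every group and do not say that equal numbers share a mouse or a day, so no pairing was assumed. Deviations of same-numbered libraries correlated at 0.31 (sufficient) and 0.369 (KO) between the culture conditions of a genotype. Between groups of different genotype they correlated at 0.0523 to 0.199, all over 11219 genes. The fit reported here leaves out any pairing of the culture conditions, and whether the same mice gave both was not tested. With the replicate block *Ccr3* was called in both conditions (adjusted p = 0.00102 and 0.00672), as were *Ccr2* (0.0227) and *Cxcr4* (0.0167) at rest, and the block within genotype called the interactions of *Ccr1* (0.0289) and *Ccr2* (0.0147). Over all genes the interaction had 86 calls with the block and 444 with the block within genotype. DESeq2's size factors raised the median log2 fold change of all genes by 0.11 for LPS + MSU against medium in sufficient cells. Low counts limit *Fpr1* and *Fpr2* at rest.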
